A study of Rattus norvegicus with 8 samples.

Results

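Expression of 9 genes that mark myelinating Schwann cells was described in the injured L5 dorsal root ganglion (DRG) of rats given a histone deacetylase inhibitor (HDACI) or vehicle. The genes were Mbp, Pmp22, Prx, Mag, Egr2, Pmp2, Mal, Gjb1 and Cnp. They were chosen by name, as the genes with a probe set carrying that single gene symbol, and each was read from the probe set on which it averaged highest across the 8 arrays. All 9 were found, on 10 of the 28826 probe sets, and they stood among 14497 genes with a symbol of their own. Mbp had 2 probe sets and each other member had 1.

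The HDACI group was adult male Wistar rats that received MS-275, an inhibitor of class I histone deacetylases, at 30 nmol per day through an intrathecal catheter and osmotic pump. The vehicle group was rats of the same strain that received the solvent, dimethyl sulfoxide in saline, without the drug. In all animals the L5 spinal nerve had been tied and cut, and the ganglion of that side was taken at day 14. There were 4 biological replicates per group, each on 1 Affymetrix Rat Gene 1.0 ST array, and no uninjured ganglia, so the values hold no comparison with an intact nerve. The sources used here do not say whether a sample came from 1 animal or from several.

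Myelinating Schwann cells wrap 1 axon segment each in a compact spiral of membrane. Pmp22, Mbp, Pmp2 and Mal belong to the membrane and to its compaction, while Mag, Gjb1, Prx and Cnp belong to the contact with the axon, the channels through the sheath, its link to the surrounding basal lamina and its cytoplasmic channels. Egr2, also called Krox20, is the transcription factor that turns this set of genes on, together with Sox10. After a nerve is cut, Schwann cells beyond the injury lose this state and take on that of repair cells, whereas the DRG lies on the side of the injury that stays joined to the cell bodies. The comparison asks whether the drug was accompanied by a difference in these genes in the ganglion.

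Sequences just before the start of transcription are given for 5 members, 4 whose values moved together over the arrays (Prx, Mag, Gjb1 and Cnp) and Egr2, whose values moved less with them. Each is the 250 bases upstream of the RefSeq start in assembly GRCr8, written 5′ to 3′ on the strand of the gene. Capitals mark exact matches, on either strand, to ACAAT or ACAAAG (cores bound by SOX factors), GCGTGGG (core bound by the EGR family) and CCAAT (the CCAAT box). The windows lie at chr1:91914171-91914420 on the plus strand for Prx, chr1:95291045-95291294 on the minus strand for Mag, chrX:70541595-70541844 on the plus strand for Gjb1, chr10:86011254-86011503 on the plus strand for Cnp and chr20:21054442-21054691 on the minus strand for Egr2.
Prx: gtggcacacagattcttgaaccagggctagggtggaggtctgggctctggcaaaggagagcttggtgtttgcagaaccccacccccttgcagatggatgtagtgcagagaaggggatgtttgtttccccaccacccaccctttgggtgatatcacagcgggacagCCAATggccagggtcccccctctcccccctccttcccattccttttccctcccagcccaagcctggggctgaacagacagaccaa
Mag: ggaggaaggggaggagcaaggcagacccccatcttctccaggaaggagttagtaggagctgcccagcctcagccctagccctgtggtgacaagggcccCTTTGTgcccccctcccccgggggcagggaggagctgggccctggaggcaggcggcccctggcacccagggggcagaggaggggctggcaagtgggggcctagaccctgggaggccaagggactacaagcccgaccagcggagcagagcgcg
Gjb1: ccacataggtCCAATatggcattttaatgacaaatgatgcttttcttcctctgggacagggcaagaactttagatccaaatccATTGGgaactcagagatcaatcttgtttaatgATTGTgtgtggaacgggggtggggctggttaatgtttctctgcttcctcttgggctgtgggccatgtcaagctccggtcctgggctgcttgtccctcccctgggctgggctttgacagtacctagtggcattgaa
Cnp: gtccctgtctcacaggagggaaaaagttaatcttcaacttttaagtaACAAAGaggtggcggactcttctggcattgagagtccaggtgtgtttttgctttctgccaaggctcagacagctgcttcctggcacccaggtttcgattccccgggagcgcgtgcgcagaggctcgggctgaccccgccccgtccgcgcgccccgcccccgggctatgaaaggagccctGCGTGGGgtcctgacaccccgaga
Egr2: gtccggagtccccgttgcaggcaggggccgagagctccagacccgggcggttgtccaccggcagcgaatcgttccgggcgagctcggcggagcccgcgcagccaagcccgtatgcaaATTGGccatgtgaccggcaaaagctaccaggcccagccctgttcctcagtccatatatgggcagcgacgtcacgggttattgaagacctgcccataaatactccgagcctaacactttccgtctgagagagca

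The capitals mark CCAAT in the window of Prx, the reverse complement of ACAAAG in that of Mag, and ACAAAG and GCGTGGG in that of Cnp. In the window of Gjb1 they mark CCAAT on each strand and, between these and the start, the reverse complement of ACAAT. In that of Egr2 they mark CCAAT on the opposite strand. Of the 9 members, 8 had a promoter window in the table, and counts were made over 300 bases, including 50 after the start. ACAAT or ACAAAG was in a window of 4 of these 8, against 44.9% of all 33469 windows in the table. Members were counted by gene and the percentages by window. Mbp, counted among the 4, had 2 windows and a match in only 1 of them. GCGTGGG was in 1 of 8 (Cnp), against 4.33% of all windows, and CCAAT was in 4 of 8, against 37.5%. None of these motifs was in all 4 windows printed for members that moved together, and a match is a description of letters, not of a bound site.

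The 8 arrays had medians of 8.13 to 8.16 (log2), and pairs of arrays correlated at 0.991 to 0.997. By limma, 0 of 28826 probe sets differed at an adjusted p of 0.05, and 1022 (3.55%) did at an unadjusted p of 0.05, 465 of them higher and 557 lower in HDACI. All 15 measured skeletal muscle genes were lower in HDACI (median -1.90, log2), and their mean per array, relative to all arrays, lay between -1.26 and -0.83 in HDACI, against 2.59, 1.75, -1.10 and 0.63 in vehicle replicates 1 to 4. With the muscle mean as a covariate the 9 differences of the members, described next, had a median of 0.04 and none passed. Pmp2 then differed by 0.31 instead of 0.13 and Cnp by 0.10 instead of 0.02. Mal differed by 0.09 instead of 0.02 and Mag by 0.07 instead of 0.02. Downward moves were seen for Egr2, at -0.16 instead of -0.10, and for Gjb1, at -0.12 instead of -0.07.

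For none of the 9 myelin genes was a difference between HDACI and vehicle larger than the spread between arrays. By limma, 0 of 9 passed an adjusted p of 0.05 (adjusted p = 1.0 for each) and 0 of 9 passed an unadjusted p of 0.05, against 3.55% of all probe sets (1.61% higher and 1.93% lower in HDACI). The difference was above 0 for 5 members and below 0 for 4, from -0.10 (Egr2) to 0.13 (Pmp2), with a median of 0.00 on the log2 scale. The median over all genes was also 0.00. In 0 of 9 members were the groups separated without overlap, against 2.1% of all probe sets. In whole ganglia, fewer myelinating Schwann cells and less RNA per cell cannot be told apart.

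What the 9 genes did show was a common pattern over single arrays. On HDACI replicate 4, 7 of the 9 had their lowest value of all 8 arrays, a position which that array held for 21.7% of all genes. On HDACI replicates 1 and 2, 8 of the 9 had their highest value, 4 on each, against 8.86% and 7.95% of all genes. For 7 of the 9 both ends of the range were thus HDACI arrays with the vehicle arrays between them, and the exceptions were Egr2 and Pmp2.

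**Figure D1:**
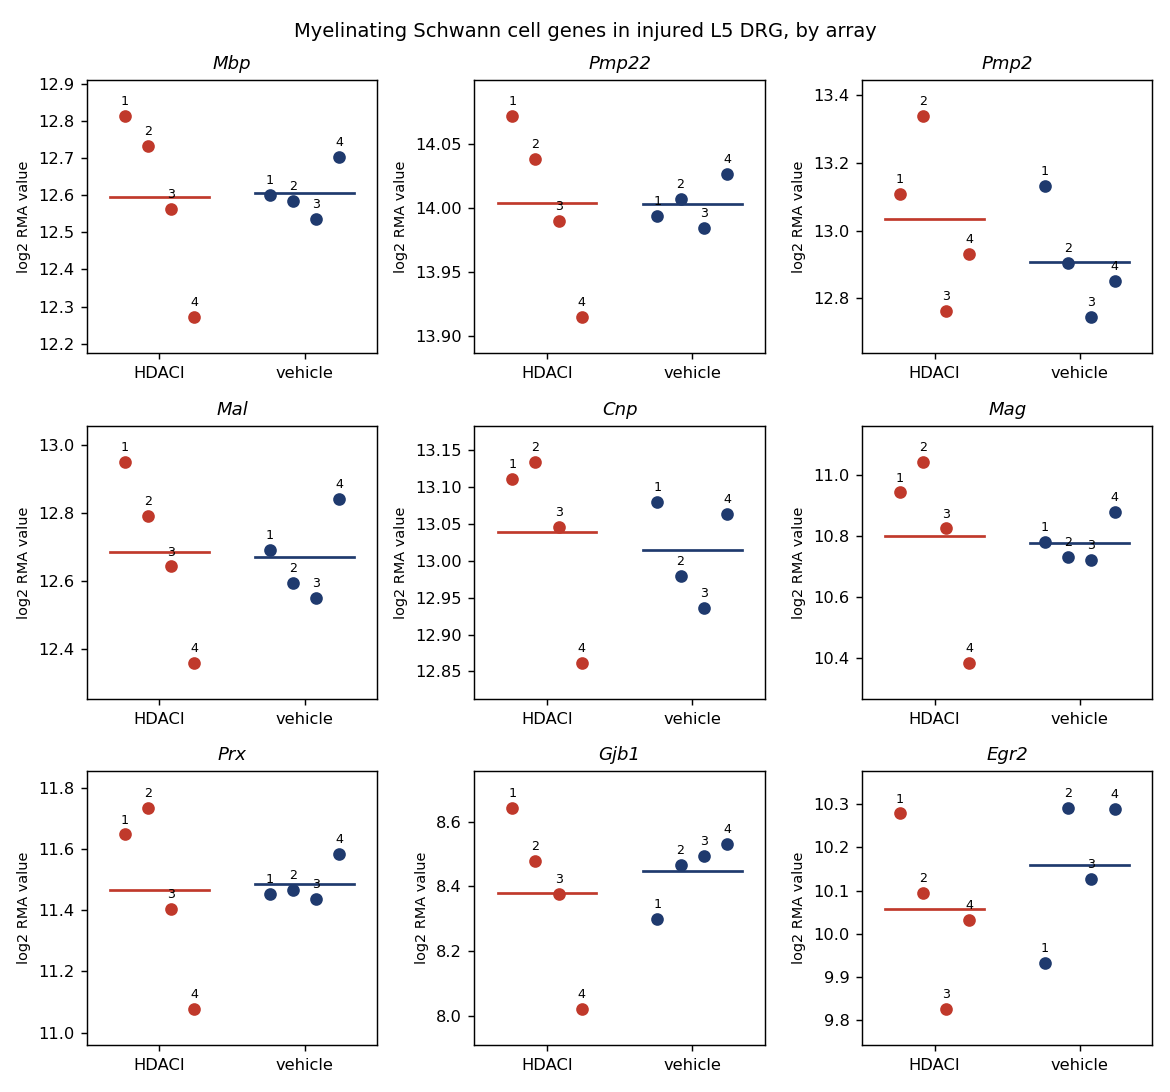
Log2 RMA value of each of the 9 genes on the 4 HDACI arrays (red, left) and the 4 vehicle arrays (dark blue, right) of injured L5 DRG, numbered by replicate, with a line at each group mean and an own vertical axis per gene. HDACI replicate 4 is the lowest array in 7 of 9 genes, and the group means differ by -0.10 (Egr2) to 0.13 (Pmp2).

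Among the genes of compact myelin, Mbp, myelin basic protein, which holds the inner membrane faces together, read 12.81, 12.73, 12.56 and 12.27 (log2) on HDACI replicates 1 to 4, against 12.60, 12.59, 12.54 and 12.70 on vehicle replicates 1 to 4. The highest 2 values and the lowest one were all HDACI arrays, with the vehicle arrays inside their range. The difference was -0.01 ± 0.11 (SE, n = 4 each, exact permutation p = 0.914, two-sided, with 0.0286 the smallest p that 70 relabellings allow), and its 95% interval, -0.26 to 0.24, takes in folds of 0.836 to 1.18. A second probe set of Mbp read 8.58, 8.53, 8.54 and 8.63 in HDACI and 8.56, 8.51, 8.52 and 8.45 in vehicle. It was highest, not lowest, on HDACI replicate 4, and differed by 0.06 (95% interval -0.04 to 0.16), so the 2 probe sets of this gene do not show the same pattern.

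Pmp22, a membrane protein of compact myelin whose duplication or deletion causes inherited neuropathy in humans, read 14.07, 14.04, 13.99 and 13.91 in HDACI, against 13.99, 14.01, 13.98 and 14.03 in vehicle. Its order over the arrays was that of Mbp at both ends, but within a far narrower range, 1.11-fold from the lowest to the highest array. The difference was 0.00 ± 0.05 (SE, n = 4 each, exact permutation p = 1, 95% interval -0.11 to 0.11), the narrowest interval of the 9.

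Mal, a proteolipid that sorts lipid rafts to the myelin membrane, read 12.95, 12.79, 12.64 and 12.36 in HDACI, against 12.69, 12.59, 12.55 and 12.84 in vehicle. HDACI replicate 1 was highest, followed by vehicle replicate 4, and HDACI replicate 4 was lowest. The groups overlapped and differed by 0.02 ± 0.12 (SE, n = 4 each, exact permutation p = 0.914, 95% interval -0.26 to 0.29).

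Pmp2, the fatty acid-binding protein P2 of peripheral myelin, departed from this order. It read 13.11, 13.34, 12.76 and 12.93 in HDACI, against 13.13, 12.90, 12.74 and 12.85 in vehicle. HDACI replicate 2 was highest, vehicle replicate 3 was lowest, and HDACI replicate 4 lay in the middle of the 8. Its difference, 0.13 ± 0.13 (SE, n = 4 each, exact permutation p = 0.4, 95% interval -0.16 to 0.42), was the highest of the 9 and was smaller than the range within either group. Leaving out HDACI replicate 2 or 3 gave 0.03 or 0.22, and leaving out vehicle replicate 1 or 3 gave 0.20 or 0.07.

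Among the genes of the axon contact, the channels and the open cytoplasm, Mag, the myelin-associated glycoprotein of the innermost wrap, read 10.94, 11.05, 10.83 and 10.38 in HDACI, against 10.78, 10.73, 10.72 and 10.88 in vehicle. It had the widest range of the 9, 1.58-fold over the arrays, and both ends of that range were HDACI arrays. The difference was 0.02 ± 0.13 (SE, n = 4 each, exact permutation p = 0.943, 95% interval -0.27 to 0.31). Without HDACI replicate 4 it was 0.16 with an unadjusted p of 0.0472 by limma (adjusted p = 1.0), the single case in which leaving out 1 array took a member past an unadjusted p of 0.05.

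Prx, periaxin, a scaffold that ties the sheath to the basal lamina, read 11.65, 11.74, 11.40 and 11.08 in HDACI, against 11.45, 11.47, 11.44 and 11.58 in vehicle. The 4 vehicle arrays lay close together, with HDACI replicates 1 and 2 above all of them and replicates 3 and 4 below all of them. The difference was -0.02 ± 0.13 (SE, n = 4 each, exact permutation p = 0.914, 95% interval -0.31 to 0.27).

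Gjb1, a connexin that forms the gap junctions across the layers of the sheath, read 8.64, 8.48, 8.38 and 8.02 in HDACI, against 8.30, 8.47, 8.49 and 8.53 in vehicle. HDACI replicate 4 was far below the rest, and HDACI replicate 1 was the one HDACI array above all vehicle arrays. The difference was -0.07 ± 0.12 (SE, n = 4 each, exact permutation p = 0.743, 95% interval -0.34 to 0.21).

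Cnp, the cyclic nucleotide phosphodiesterase that keeps cytoplasmic channels of myelin open, read 13.11, 13.13, 13.05 and 12.86 in HDACI, against 13.08, 12.98, 12.94 and 13.06 in vehicle. The same array, HDACI replicate 4, was lowest, and replicates 1 and 2 were above all vehicle arrays. The difference was 0.02 ± 0.07 (SE, n = 4 each, exact permutation p = 0.8, 95% interval -0.13 to 0.18).

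Egr2, the regulator of the set, read 10.28, 10.10, 9.83 and 10.03 in HDACI, against 9.93, 10.29, 10.13 and 10.29 in vehicle. Its lowest array was HDACI replicate 3 and its highest was vehicle replicate 2, neither of which was an extreme for any other member. The difference was -0.10 ± 0.11 (SE, n = 4 each, exact permutation p = 0.429, 95% interval -0.35 to 0.15), the lowest of the 9, and the interval takes in folds of 0.784 to 1.11. The difference was -0.02 without HDACI replicate 3, -0.06 without vehicle replicate 2 or 4, and -0.18 without HDACI replicate 1 or vehicle replicate 1.

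**Figure D2:**
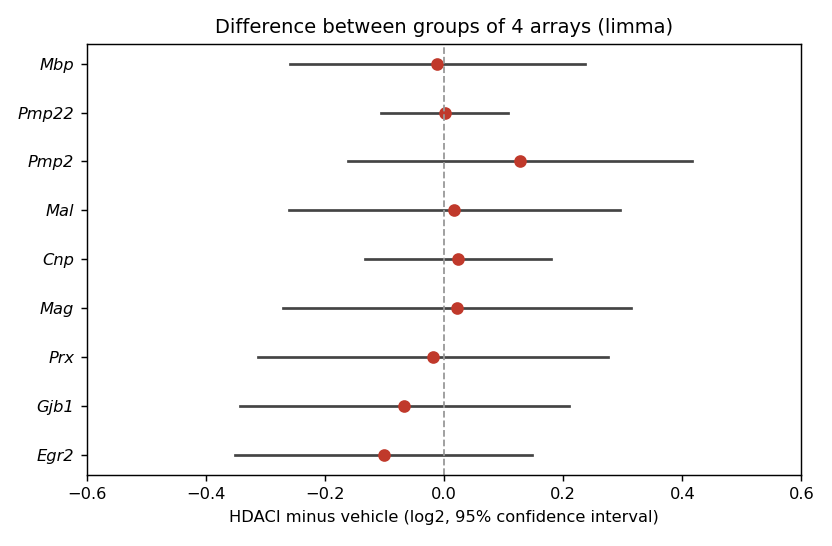
Points give the HDACI minus vehicle difference of each gene on the log2 scale and lines its 95% confidence interval from limma (n = 4 arrays per group). All 9 intervals include 0, and the points lie between -0.10 (Egr2) and 0.13 (Pmp2).

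The intervals limit what these arrays could show. Over the 9 genes the lowest bound was a fold of 0.784 (Egr2) and the highest 1.33 (Pmp2), so smaller changes lie within the intervals, and a p above the threshold does not show that the groups were alike. The sign of a small difference often rested on 1 array. Without HDACI replicate 4, 8 of the 9 differences were above 0 with a median of 0.10, and without HDACI replicate 1, 8 of the 9 were below 0 with a median of -0.07. Without HDACI replicate 2, likewise 8 of 9 were below 0, with a median of -0.06, and Egr2 and Pmp2 kept their sign throughout.

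The spread between arrays was wider in HDACI than in vehicle for all 9 genes, whereas it was wider in HDACI for 46.3% of all genes. The SD over the 4 HDACI arrays was 4.37 times that over the 4 vehicle arrays for Prx, 4.00 times for Mag, 3.73 times for Pmp22 and 3.40 times for Mbp. The ratio was 1.51 for Pmp2 and 1.1 for Egr2, so for Egr2 the groups spread about equally. The median ratio of the 9 was 2.56, beside 0.944 over all genes. In absolute terms the median SD of the members was 0.248 in HDACI and 0.0728 in vehicle (log2), beside 0.0839 and 0.0897 over all genes. The members share the same 8 arrays, so the 9 ratios are not separate observations.

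Much of this width came with HDACI replicate 4. Without it, the ratio was 2.54 for Prx, 2.25 for Pmp22, 1.82 for Mbp and 1.51 for Mag, with a median of 1.51 over the members, beside 0.756 over all genes. Cnp then spread less in HDACI than in vehicle (ratio 0.668), so that 8 of the 9 members were wider in HDACI, against 35.7% of all genes. The count was also 8 of 9 without HDACI replicate 1 or 3 and 9 of 9 without HDACI replicate 2.

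**Figure D3:**
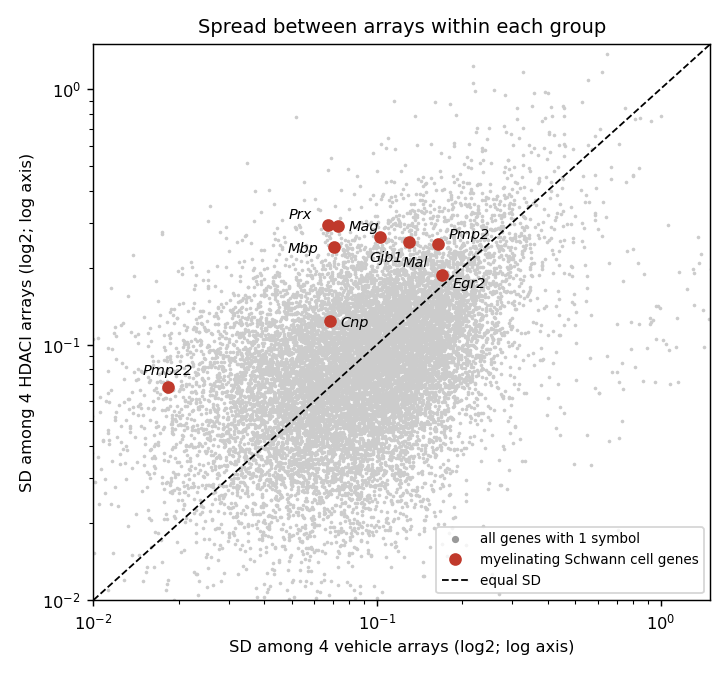
Each point is 1 gene, placed by its SD (log2) over the 4 HDACI arrays (vertical, log axis) and over the 4 vehicle arrays (horizontal, log axis), with the 9 members in red, other genes in grey and a dashed line at equal SD; genes with an SD under 0.01 or over 1.5 lie outside the axes. All 9 members lie above the line, Egr2 closest to it and Prx farthest.

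HDACI replicate 4 lay below the mean of the other 3 HDACI arrays in every member. Mag was 0.55 lower there (log2, 0.681 times the level of the others), Prx 0.52 lower, Gjb1 0.48 lower, Mal 0.44 lower and Mbp 0.43 lower. Cnp was 0.24 lower, Pmp2 0.14 lower, Pmp22 0.12 lower and Egr2 0.03 lower. Averaged over the members after centring each gene on its own mean, the arrays stood at 0.17, 0.15, -0.07 and -0.25 for HDACI replicates 1 to 4 and at -0.01, -0.00, -0.06 and 0.08 for vehicle replicates 1 to 4.

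**Figure D4:**
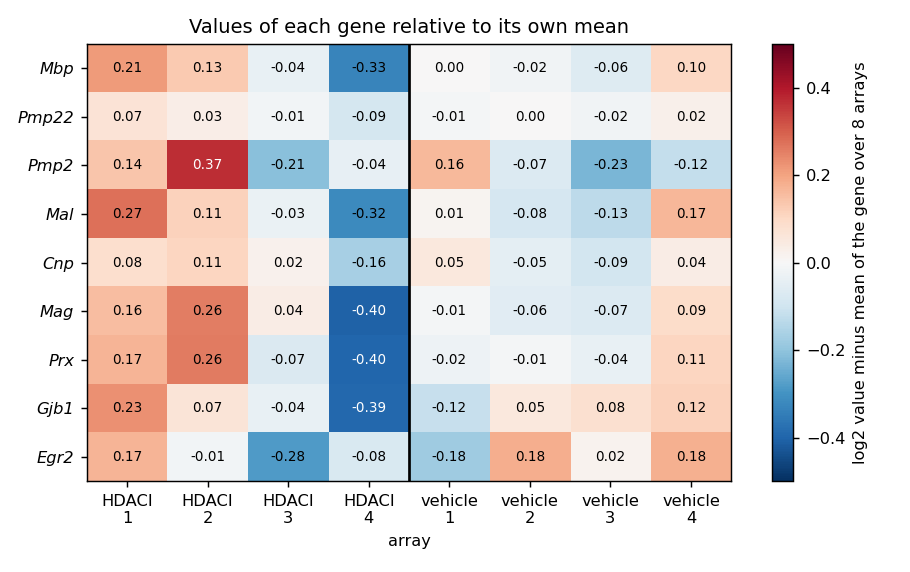
Colour and number give the log2 value of each gene (rows) on each array (columns, HDACI left of the black line, vehicle right of it) minus the mean of that gene over the 8 arrays. Column HDACI 4 is below 0 in all 9 rows, from -0.40 (Mag and Prx) to -0.04 (Pmp2), and vehicle columns stay within -0.23 to 0.18.

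After removal of the group means, the members followed each other over the 8 arrays. Pearson's r over the 36 pairs of members lay between 0.11 and 0.99, with a median of 0.86. Mbp and Pmp22 were the closest pair (r = 0.99), followed by Prx and Mag (r = 0.98). The 21 pairs that hold neither Egr2 nor Pmp2 had r from 0.69 to 0.99 with a median of 0.91. The pairs of these 7 genes are given as a description, since all rest on the same 8 arrays and HDACI replicate 4 weighs heavily in them. Without that array their median r was 0.73, from -0.07 to 0.97.

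Egr2 and Pmp2 followed the others less. Egr2 correlated with the other 7 genes at 0.11 (Cnp) to 0.55 (Gjb1), and Pmp2 at 0.17 (Gjb1) to 0.60 (Cnp). With each other they correlated at 0.18. Neither gene was extreme on HDACI replicate 4.

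The genes outside the members with the most similar profile over the 8 arrays were Cldn19, a tight junction protein of Schwann cells (r = 0.99 with the mean residual profile of the members), Bcas1 (0.98), an early marker of myelinating oligodendrocytes, Fa2h (0.98), the fatty acid hydroxylase of myelin lipids, Disp1 (0.97), which releases hedgehog ligands, Slc36a2 (0.97), a proton-coupled amino acid transporter, Dusp15 (0.97), a phosphatase expressed in myelinating glia, Efhd1 (0.97), a calcium-binding mitochondrial protein, and Mgll (0.97), monoacylglycerol lipase. All 8 had their lowest value on HDACI replicate 4 and their highest on HDACI replicate 1, and all 8 had overlapping groups. These ends are also those of the members' mean, so they follow largely from the ranking by likeness. Cldn19 read 12.45, 12.45, 12.20 and 11.86 in HDACI, against 12.23, 12.23, 12.18 and 12.40 in vehicle. Slc36a2 read 10.63, 10.60, 10.33 and 9.70 in HDACI, against 10.41, 10.48, 10.35 and 10.62 in vehicle. They were ranked among genes with an SD of at least 0.15 over the arrays.

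A list of 20 further components of myelin and its lipids, 15 of them measured, behaved like the 9 members only in part. None of the 15 passed an adjusted or an unadjusted p of 0.05, 5 were higher and 10 lower in HDACI, and their median difference was -0.02. HDACI replicate 4 was the lowest array for 10 of the 15, and the spread was wider in HDACI for 12 of the 15. Without that array it was wider for 8 of the 15, beside 8 of the 9 members. The residual r to the profile of the members was 0.45 for Cadm4, 0.22 for Tspan2, 0.02 for Mobp, -0.23 for Arpc1b and -0.58 for Cd82. For the other measured genes of the list it lay between 0.74 (Sirt2) and 0.99 (Cldn19). Arpc1b read 12.79 to 12.83 in HDACI and 12.69 to 12.77 in vehicle, without overlap, which held for 2.1% of all probe sets. Pllp, plasmolipin, a membrane protein of myelin, read 11.78, 11.78, 11.58 and 11.17 in HDACI, against 11.57, 11.59, 11.61 and 11.67 in vehicle. The gene of this list with the smallest limma p was Cd82, a tetraspanin. It differed by 0.15 ± 0.07 (SE, unadjusted limma p = 0.0541, exact permutation p = 0.0857, adjusted p = 1.0) and, unlike the members, was highest on HDACI replicate 4. Without that array the difference of Cd82 was 0.09.

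Of the 12 measured transcription factors of the Schwann cell lineage, 7 were higher and 5 lower in HDACI. Of the 12, 1 passed an unadjusted p of 0.05, against 3.55% of all probe sets. This was Nab2, a corepressor of EGR factors. It read 9.77, 9.80, 9.80 and 9.61 in HDACI, against 9.58, 9.58, 9.49 and 9.51 in vehicle. The groups had no overlap, which held for 2.1% of all probe sets. Nab2 differed by 0.20 ± 0.06 (SE, unadjusted limma p = 0.00584, exact permutation p = 0.0286, adjusted p = 1.0). Egr2 itself differed by -0.10, within its spread. Sox10, which acts with Egr2 on myelin genes, read 11.42, 11.37, 11.37 and 11.17 in HDACI, against 11.25, 11.38, 11.22 and 11.42 in vehicle, and differed by 0.01 ± 0.07 (95% interval -0.15 to 0.18). It was 1 of 4 factors among the 12 with their lowest value on HDACI replicate 4. Nab1 differed by 0.01 and ran opposite to the members, with a residual r of -0.67 to their profile.

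Among 11 measured signals between axon and Schwann cell, 4 were higher and 7 lower, and none passed an unadjusted p of 0.05. The smallest p belonged to Nrg1, neuregulin 1, the axonal signal that sets myelin thickness, which differed by -0.17 ± 0.10 (SE, unadjusted limma p = 0.123, exact permutation p = 0.171), and by -0.07 without vehicle replicate 2. Erbb3, the neuregulin receptor of Schwann cells, read 12.13, 12.13, 12.02 and 11.77 in HDACI, against 12.05, 12.09, 12.00 and 12.12 in vehicle, and so had the pattern of the members. Of 12 measured genes of the basal lamina and the node, 3 were higher and 9 lower. The 1 past an unadjusted p of 0.05, against 3.55% of all probe sets, was Cntn1, contactin 1 of the paranode. It differed by -0.13 ± 0.05 (SE, unadjusted limma p = 0.0369, exact permutation p = 0.0857, adjusted p = 1.0). With 1 array left out at a time that unadjusted p lay between 0.0177 (without vehicle replicate 1) and 0.103 (without vehicle replicate 2).

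Of 10 other genes mutated in inherited demyelinating neuropathy, 2 were higher and 8 lower, with none past an unadjusted p of 0.05. Litaf, an endosomal protein, had the smallest p and differed by 0.08 ± 0.05 (SE, unadjusted limma p = 0.133, exact permutation p = 0.0286, adjusted p = 1.0). Its HDACI arrays at 10.88 to 10.97 and vehicle arrays at 10.79 to 10.88 met without overlapping. Groups without overlap were found for 2.1% of all probe sets. Of 7 measured genes kept by nonmyelinating Schwann cells 1 was higher and 6 lower, with none past that threshold. Their smallest p belonged to Ptprz1, a receptor phosphatase, at -0.10 ± 0.05 (SE, unadjusted limma p = 0.0644, exact permutation p = 0.0286, adjusted p = 1.0). Its HDACI arrays at 10.74 to 10.83 lay just below its vehicle arrays at 10.83 to 10.99, likewise without overlap.

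As a list, genes of repair and immature Schwann cells did not mirror the members, but single genes went both ways. Their residual r to the profile of the members ran from -0.82 (Runx2) to 0.91 (Shh), with a median of 0.25. Of 19 measured, 11 were higher and 8 lower in HDACI, with a median difference of 0.02, and their mean per array stayed between -0.03 and 0.06 in HDACI and between -0.06 and 0.07 in vehicle. HDACI replicate 4 was the lowest array for 5 of them and the highest for 5. The 1 gene past an unadjusted p of 0.05, against 3.55% of all probe sets, was Runx2, a transcription factor that rises in Schwann cells after injury. Runx2 read 9.83, 9.79, 9.98 and 10.20 in HDACI, against 9.63, 9.79, 9.73 and 9.80 in vehicle. It differed by 0.21 ± 0.09 (SE, unadjusted limma p = 0.0436, exact permutation p = 0.0571, adjusted p = 1.0), and by 0.13 without HDACI replicate 4, where it was highest. Jun, the transcription factor that drives the repair state, differed by 0.07 ± 0.05 (SE, unadjusted limma p = 0.194, exact permutation p = 0.171). It was highest on HDACI replicate 4 and had a residual r of -0.72 to the profile of the members.

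As lists, macrophage and fibroblast genes ran opposite to the members over the 8 arrays. Their median residual r to the profile of the members was -0.80 and -0.71. HDACI replicate 4 weighs heavily in both, and no value without that array is given. The mean of 12 macrophage genes stood at -0.16, -0.14, 0.07 and 0.46 on HDACI replicates 1 to 4, against 0.11, -0.08, -0.11 and -0.15 on vehicle replicates 1 to 4. HDACI replicate 4 was the highest array for 10 of the 12, a position it held for 16.4% of all genes. Cd68, a lysosomal protein of macrophages, read 10.23, 10.37, 10.88 and 11.50 in HDACI, against 10.98, 10.71, 10.41 and 10.64 in vehicle. It was lowest on HDACI replicate 1, where 4 of the members were highest, and highest on HDACI replicate 4. No other macrophage gene was lowest on HDACI replicate 1. The others were lowest on a vehicle array, except C1qc, which was lowest on HDACI replicate 2.

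The 9 genes of fibroblasts and meninges averaged 0.05, 0.08, -0.18 and 0.32 in HDACI, against 0.15, -0.32, 0.09 and -0.20 in vehicle, and were highest on HDACI replicate 4 for 7 of the 9. The low mean on HDACI replicate 3 came with 1 gene, Ptgds, which read 9.72 there, and the median of the list on that array was 0.01. On HDACI replicates 1 to 3 the fibroblast mean had the sign of the members' mean (0.17, 0.15 and -0.07). Ptgds and Slc22a6 ran with the members (residual r 0.23 and 0.38). All 12 macrophage genes and all 9 fibroblast genes had a difference above 0, with medians of 0.10 and 0.13, but 0 of either list passed an unadjusted p of 0.05. In both lists HDACI replicate 4 was the only HDACI array with a mean above all vehicle arrays. HDACI replicates 1 to 3 averaged -0.16, -0.14 and 0.07 for the macrophage genes, beside -0.15 to 0.11 in vehicle. Other lists did not run opposite to the members. Of the 12 sensory neuron genes 11 had a difference below 0 (median -0.06), none past an unadjusted p of 0.05, and the list averaged between -0.11 and -0.01 in HDACI and between -0.14 and 0.20 in vehicle. The 0.20 was on vehicle replicate 4, where the sodium channel gene Scn10a read 10.06 and the median of the list was 0.05. The 7 satellite glia genes averaged between -0.03 and 0.06 in HDACI and between -0.12 and 0.05 in vehicle. The 10 endothelial and pericyte genes averaged between -0.04 and 0.13 in HDACI and between -0.15 and 0.03 in vehicle, and the 8 adipocyte genes between -0.05 and 0.11 in HDACI and between -0.08 and 0.07 in vehicle. The 5 erythroid genes averaged between -0.29 and 0.92 in HDACI, highest on replicate 2, and between -0.47 and 0.24 in vehicle. The part of other cells in the pattern of the members was not tested.

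**Figure D5:**
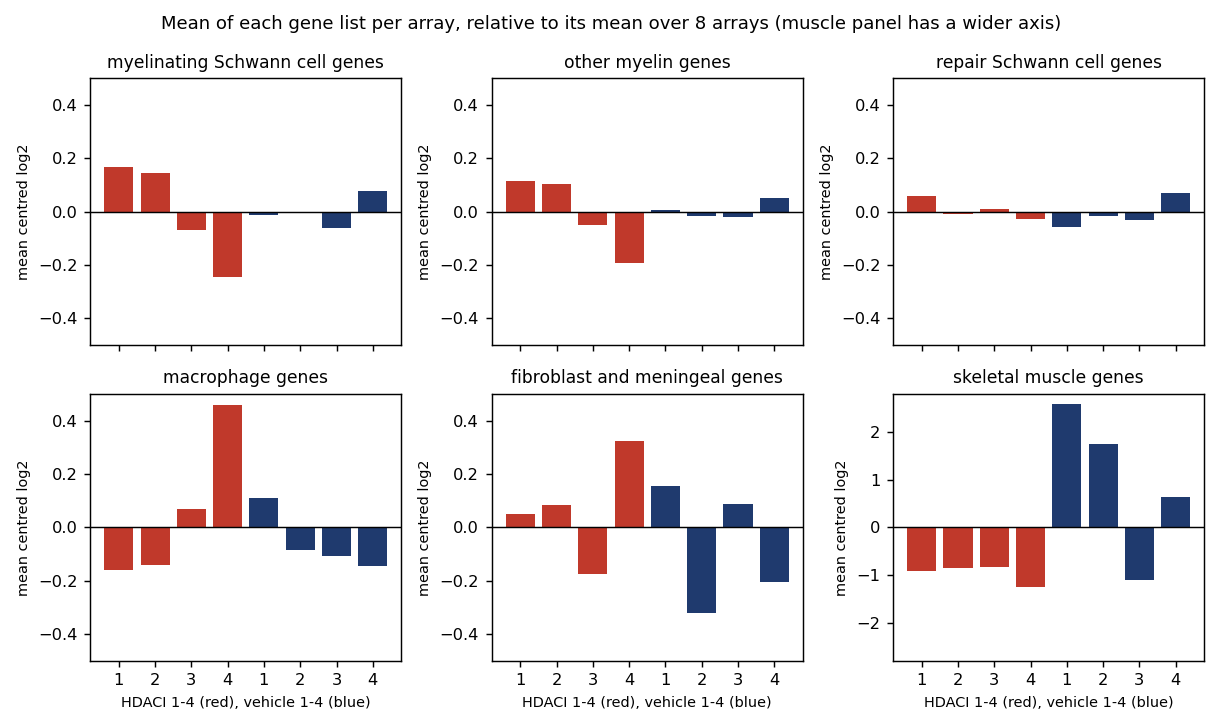
Bars give the mean log2 value of each gene list per array, relative to the mean of each gene over the 8 arrays, for HDACI replicates 1 to 4 (red) and vehicle replicates 1 to 4 (dark blue); the muscle panel has a wider axis. The myelinating Schwann cell genes and the other myelin genes are lowest on HDACI replicate 4 (-0.25 and -0.19), where the macrophage genes are highest (0.46).

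Mbp, Mag, Mal, Cnp and Gjb1 are also expressed by oligodendrocytes, the myelinating cells of the central nervous system, whereas Prx and Pmp22 belong to the peripheral sheath. Of 9 measured genes of oligodendrocytes, Mog, a protein of central myelin alone, read 7.25 to 7.44 in HDACI and 7.33 to 7.48 in vehicle, and Opalin, likewise of oligodendrocytes, read 5.96 to 6.06 in HDACI and 5.89 to 5.99 in vehicle. Levels of different probe sets cannot be compared, so these values do not say how much central myelin the samples held. The oligodendrocyte list averaged between -0.01 and 0.07 in HDACI and between -0.10 and 0.11 in vehicle, and HDACI replicate 4 was the lowest array for 3 of the 9 genes. The part of central myelin in the values of the members was not tested.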

How the data were processed

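RNA of injured ipsilateral L5 DRG was hybridized by the authors to 8 Affymetrix Rat Gene 1.0 ST arrays, 4 HDACI and 4 vehicle. The authors used oligo for RMA (background correction, quantile normalization, summary per probe set), which left the deposited values as log2 expression. Tool versions were not given in the methods or labels used here, and no batch was named. Because RMA equalizes the distribution of every array, a shift of the whole transcriptome cannot be seen. Arrays have no read depth, and their number limits the precision. Levels of different probe sets cannot be compared.

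Groups came from the sample titles, since the treatment field names MS-275 for vehicle samples too. Gene names came from the platform annotation (15209 probe sets with 1 symbol, 306 with several, 13311 with none). Between any pair of arrays at most 0.0486% of values were equal. Differences were HDACI minus vehicle, tested two-sided with limma 3.58.1 (lmFit, eBayes; R 4.3.3) and Benjamini-Hochberg adjustment over all 28826 probe sets, after tests on simulated data. Single genes were also tested by exact permutation over 70 relabellings. Residual correlations were taken after removal of the group means.

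The members and 16 further lists (182 of 209 entries measured in all 17) were chosen with earlier results of these data known. The members were named, with Sox10 and, per pathway list, up to 4 genes with the smallest p under 0.05 or else the 1 with the smallest p, and the 8 genes most similar to the members. Erbb3, Pllp, Arpc1b, Cadm4, Tspan2, Mobp, Nab1, Jun, Shh, Cd68, C1qc, Ptgds, Slc22a6, Scn10a, Mog and Opalin were chosen after their values were seen. Alternatives were the replicate block, a dim filter (30th percentile), median centring, cyclic loess, an intensity trend with robust variances, array weights, a skeletal muscle covariate, another probe set rule and leaving out arrays. The spread without single HDACI arrays was added after seeing the data. Promoter sequences came from RefSeq (GRCr8).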

Additional observations from a re-analysis of the deposited data

Results flagged for a closer look

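Litaf, the endosomal protein, read 10.97 on HDACI replicate 4 while the other 3 HDACI arrays lay between 10.88 and 10.89, so that its gap to the nearest array made up 0.959 of the range of the group, above Dixon's 95% critical value for 4 samples. This was the 1 such case among 34 groups of 4 arrays tested (17 named genes in each group of rats), where chance gives about 1 in 20.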

How the results depend on the processing

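No member passed an adjusted p of 0.05 under any alternative, and 0 probe sets did in any. Of 17 alternatives for each of the 9 members, summed over the members, 125 kept the direction and side of the threshold and 28 turned the sign of a difference near 0. Egr2 and Pmp2 never changed sign, but their size moved, from -0.177 (without vehicle replicate 1) to -0.0244 (without HDACI replicate 3) for Egr2 and from 0.0254 (without HDACI replicate 2) to 0.218 (without HDACI replicate 3) for Pmp2. With array weights Pmp2 differed by 0.276, and with the skeletal muscle covariate by 0.315. With array weights Mbp differed by 0.0833 and Prx by 0.112, with the skeletal muscle covariate Mbp by 0.0395 and Prx by 0.0166, with the mean of all its probe sets Mbp by 0.0245, and with median centring Pmp22 by -0.00527. Without vehicle replicates 1 and 2, the arrays highest in muscle genes, Pmp22 differed by -0.00205, Mag by -0.00124 and Mal by -0.00967, and the other signs held. Leaving out 1 array at a time, the difference ranged from -0.0845 to 0.0966 for Mbp, from -0.022 to 0.0303 for Pmp22, from -0.108 to 0.111 for Prx, from -0.0604 to 0.16 for Mag, from -0.0715 to 0.127 for Mal, from -0.155 to 0.0524 for Gjb1, from -0.00824 to 0.0825 for Cnp and from -0.0179 to 0.0694 for Sox10. The count of members past an unadjusted p of 0.05 ranged from 0 to 1 (Mag, without HDACI replicate 4), and the count of probe sets past it from 708 to 1758 (without vehicle replicate 1). With array weights it was 2045, against 1022. The count of members with a wider SD in HDACI ranged from 8 to 9 over the settings that left out 1 HDACI array. The causes were not tested.

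No pairing of the samples by replicate number was visible. Deviations of same-numbered arrays correlated at -0.04, 0.01, 0.01 and -0.28, and 0 HDACI arrays correlated best with the vehicle array of their number. These values cannot exclude that samples were matched or processed in pairs. With the replicate number as a block, 803 probe sets passed an unadjusted p of 0.05 and the differences of the members were the same values, with 0 of 9 past the threshold. Whether the members' wider spread in HDACI would recur in other animals cannot be read from 4 arrays per group.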

Other observations

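The genes that ran most opposite to the members over the 8 arrays, among genes with an SD of at least 0.15 and chosen after their values were seen, were Cmklr1, a chemerin receptor of macrophages (r = -0.98 with the mean residual profile of the members), Capn6 (-0.96), Rac2 (-0.96), a GTPase of blood cells, Tfec (-0.96), a transcription factor of macrophages, C7 (-0.95), a complement component, Fcrla (-0.95), Mfap2 (-0.95), a microfibril protein, and the chemokine Ccl11 (-0.94). All 8 were highest on HDACI replicate 4, where the members' mean was lowest, which follows largely from the ranking. Ccl11 read 7.49, 7.86, 8.28 and 8.85 in HDACI, against 8.02, 7.92, 7.84 and 7.75 in vehicle. Cmklr1 read 9.32, 9.48, 9.81 and 10.14 in HDACI, against 9.59, 9.56, 9.54 and 9.34 in vehicle. Both spread over a wider range in HDACI than in vehicle, and neither passed an unadjusted limma p of 0.05 (0.363 for Ccl11 and 0.293 for Cmklr1).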
